A study of Mus musculus with 6 samples.

Results

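The Acsm genes encode the medium-chain acyl-CoA synthetases, and 4 of them, Acsm1, Acsm2, Acsm3 and Acsm5, are described here in the livers of mutant and control mice. They were found by gene symbol among the 55487 genes of the deposited tables. The 4 were selected on earlier results of the mutant against control comparison, in which measured fold changes and levels were known, so their values in that comparison are a description with no test. Liver RNA of male C57/Bl6J mice on a high-fat diet (HFD) was sequenced in 6 libraries. The 3 mutant libraries carry the genotype label RXRa f/f Alb cre+/-, while the design text speaks of an Rxra S65A mutant. The 3 control libraries carry the genotype label Alb cre +/-, which would put a Cre recombinase under the hepatocyte-active albumin promoter in both groups, but their sample titles call them WT and only the mutant titles say Cre. Whether the controls carry Cre is therefore not settled by the labels, and the series title names a JNK isoform rather than Rxra. No label gives the age of the mice. The labels do not state that the libraries come from separate animals, so a p-value here reflects library-to-library spread, which may be technical.

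Medium-chain acyl-CoA synthetases lie in the mitochondrial matrix. They use ATP to join fatty acids of medium length, and carboxylic acids of foreign origin such as benzoate and salicylate, to coenzyme A. The thioester then enters β-oxidation or, for the aromatic acids, is passed to glycine by glycine N-acyltransferase and excreted. Liver and kidney are the main sites of both routes. RXRα, the product of Rxra, is the common dimer partner of nuclear receptors that govern lipid metabolism.

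Library totals were 35847386 to 43162557 estimated counts in the mutant libraries and 38766643 to 40155170 in the control libraries. Rxra had 700, 522 and 609 CPM (counts scaled to a common library size, here after TMM) in mutant replicates 1 to 3 and 501, 471 and 414 CPM in control replicates 1 to 3. Its log2 fold change of 0.40 ± 0.13 (SE) missed the threshold of edgeR's test (adjusted p = 0.0724), and values per gene do not tell which form of the protein is made. The hepatocyte markers were abundant, with 54000 to 63800 summed TPM (a level scaled by transcript length and library) over 10 genes in the mutant libraries and 79000 to 89500 in the controls. The major urinary protein genes took 12.8 to 16.9% of the counts in the mutants and 1.85 to 3.09% in the controls. TMM, which sets the typical gene equal between groups, gave scaling factors of 0.863 to 0.886 to the mutant libraries and 1.145 to 1.151 to the controls. With counts per library total the median log2 fold change of all tested genes was -0.40, and with log2(TPM + 1) it was -0.48, so fold changes of the Acsm genes are given on each of these scales.

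All the mouse Acsm genes of the annotation lie in 1 cluster on the plus strand of chromosome 7. In mm10 coordinates (GENCODE release M21) it spans bases 119519463 to 119787513, or 268.1 kb. The order along the chromosome is Acsm5 (119519463 to 119545551), Acsm2 (119554340 to 119600690), Acsm1 (119607026 to 119662515), Acsm4 (119690026 to 119714565) and Acsm3 (119760923 to 119787513). The only other protein-coding gene inside the cluster is Thumpd1, between Acsm4 and Acsm3. In the sense orientation no stretch of 31 bases is shared between the annotated transcripts of any pair of these 5 Acsm genes. They thus do not compete for reads of that length in that orientation. Of the stretches in Acsm2 transcripts 1.41% also occur in the same orientation in transcripts of other genes, and of those in Acsm3 0.363%. Matches to the reverse complement were not counted. Acsm3 overlaps Eri2 on the opposite strand by 18835 bases, Acsm1 overlaps the antisense genes Gm19950 and Gm45792, and Acsm5 overlaps Pdilt by 4027 bases. No source used here says whether the counting used strand, so reads of these overlaps could be placed with either gene.

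The bases just before the transcription start of 3 members are shown, because Acsm1, Acsm2 and Acsm3 have the 3 most different fold changes of the 4 members. Each run is the 250 bases upstream of a RefSeq start on the plus strand of chromosome 7 (RefSeq, GRCm38.p6), and all 4 members had an entry. Capitals mark matches to the motifs searched, on either strand. They are chr7:119617562-119617811 for Acsm1, chr7:119554090-119554339 for the upstream one of the 2 starts of Acsm2 and chr7:119760673-119760922 for Acsm3.
Acsm1: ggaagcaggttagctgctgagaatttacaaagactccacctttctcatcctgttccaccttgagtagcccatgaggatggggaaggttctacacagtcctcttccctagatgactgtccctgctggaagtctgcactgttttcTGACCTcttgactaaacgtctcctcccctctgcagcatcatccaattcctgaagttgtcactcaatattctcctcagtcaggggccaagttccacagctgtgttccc
Acsm2: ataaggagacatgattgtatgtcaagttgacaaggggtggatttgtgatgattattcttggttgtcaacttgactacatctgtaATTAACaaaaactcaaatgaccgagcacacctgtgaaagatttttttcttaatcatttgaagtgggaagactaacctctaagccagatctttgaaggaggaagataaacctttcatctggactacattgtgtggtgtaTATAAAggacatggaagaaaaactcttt
Acsm3: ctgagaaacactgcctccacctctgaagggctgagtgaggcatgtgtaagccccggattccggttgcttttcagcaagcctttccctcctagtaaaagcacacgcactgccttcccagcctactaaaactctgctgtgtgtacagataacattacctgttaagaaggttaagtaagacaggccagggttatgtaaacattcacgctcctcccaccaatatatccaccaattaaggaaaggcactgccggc

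The capitals in the Acsm1 run are TGACCT, the reverse complement of the nuclear receptor half-site AGGTCA, 107 bases before the start. That half-site occurs in 14% of the 32851 promoter windows of the same length. In the Acsm2 run they are TATAAA, 28 bases before the start and found in 12.4% of windows, and ATTAAC, the reverse complement of GTTAAT, found in 6.43%. GTTAAT is part of the site of the liver factor HNF1. The Acsm3 run and those of Acsm5 and of the downstream Acsm2 start held no match. Also searched were a pair of AGGTCA half-sites in tandem 1 base apart (DR1, in 0.0335% of windows) or 4 bases apart (DR4, in 0.0152%) and the STAT site TTCNNNGAA (7.02%), and no Acsm window held any of these.

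Acsm1, also known as butyryl-CoA synthetase, was the most abundant of the 4. Its level was 166, 151 and 148 TPM in mutant replicates 1 to 3, against 173, 177 and 175 TPM in control replicates 1 to 3. All mutant libraries lay below all control libraries on this scale, and the controls were within a factor of 1.03 of each other. After TMM scaling the order turned round, with 305, 303 and 279 CPM in the mutants and 219, 225 and 218 CPM in the controls. The groups did not overlap on that scale either, and the log2 fold change was 0.42 ± 0.08 (SE). It was 0.025 with counts per library total and -0.17 with log2(TPM + 1). On each of these scales the value was above the median of all tested genes.

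Acsm3, first described as the SA gene for its expression in the kidney of hypertensive rats, came second. It had 55.5, 61.9 and 53.2 TPM in the mutants, against 94.2, 95.7 and 107 TPM in the controls. The groups were well apart in TPM, with means of 56.8 ± 4.51 and 99.0 ± 7.0 TPM (SD, n = 3 each) in mutants and controls. With TMM scaling they overlapped, at 126, 153 and 123 CPM in the mutants and 147, 149 and 164 CPM in the controls. The log2 fold change was -0.20 ± 0.11 (SE) with TMM, -0.60 with counts per library total and -0.79 with log2(TPM + 1). On each of these scales the value was below the median of all tested genes.

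Acsm5, a less studied member of the family, had 45.7, 42.6 and 41.8 TPM in the mutants, against 66.9, 61.9 and 73.0 TPM in the controls. After TMM scaling the values were 106, 108 and 99.4 CPM in the mutants and 107, 99.3 and 115 CPM in the controls. These overlapped over nearly their whole range. Its log2 fold change of -0.04 ± 0.09 (SE) with TMM was close to that of the typical gene, and it was -0.43 with counts per library total and -0.62 with log2(TPM + 1). The sign at TMM scaling turned to 0.021 without control replicate 3 and to 0.00082 without mutant replicate 3.

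Acsm2, known mainly from the proximal tubule of the kidney, was the rarest of the 4. It had 62.2, 52.7 and 25.4 estimated counts in the mutants, against 2.55, 2.57 and 0 in the controls. Every mutant library was above every control library, and mutant replicate 3 had less than the other mutants. On the length-scaled level the values were 0.706, 0.649 and 0.348 TPM in the mutants and 0.0349, 0.0363 and 0 TPM in the controls. Each library rounded to whole counts and summed, this is 140 counts or 1.38 CPM in the mutants (95% exact Poisson interval 1.16 to 1.63) and 6 counts or 0.0444 CPM in the controls (0.0163 to 0.0967). The ratio of these rounded sums was 31, with an interval of 13.9 to 86.0. These intervals cover counting error only and leave out the spread between libraries. They treat rescaled abundances as counts, and are no test, since Acsm2 was selected on this comparison. Without rounding the controls sum to 5.12 counts or 0.0379 CPM, and the ratio was 36.4. The log2 fold change was 4.84 ± 0.81 (SE) with TMM, the 15th largest of 14286, and 4.46 with counts per library total. Its direction was the same under each of the scalings run. Acsm2 passed the low-count filter of the main fit through the mutant libraries alone, so its rank is not independent of being high there. It failed the filters of 1 TPM and of 1 CPM in at least 3 libraries, so the fits with those filters have no value for it.

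Since Acsm2 is a kidney gene, 12 markers of kidney tubule were examined beside it. Their summed level was 0.668 to 1.16 TPM in the mutants and 1.64 to 2.32 TPM in the controls, and most of the control sum came from Napsa, an aspartic protease gene. The other 11 summed to 0.368 to 0.685 TPM in the mutants and 0.124 to 0.442 TPM in the controls, where the groups overlapped. Of the 12, Kap, Slc5a2, Slc5a12, Slc12a1 and Aqp2 were at 0 in all 6 libraries. Umod, which encodes uromodulin and is a neighbour of the cluster, averaged 0.0165 TPM in the mutants and 0.0143 TPM in the controls. Miox averaged 0.335 TPM in the mutants and 0.219 TPM in the controls, with overlap, and Slc12a3 0.0262 and 0.0282 TPM. The 2 kidney markers that passed the filter on low counts differed in opposite directions, each without overlap of the groups and neither called by edgeR. Lrp2, which encodes the tubular uptake receptor megalin, had 1.6, 1.18 and 2.48 CPM in the mutants, against 0.348, 0.314 and 0 CPM in the controls (log2 fold change 2.97 ± 0.91, adjusted p = 0.0651). Napsa had 0.105, 0.341 and 0.613 CPM in the mutants, against 1.57, 1.53 and 0.877 CPM in the controls (-1.92 ± 0.64, adjusted p = 0.0858). Slc34a1 and Slc22a12, transporter genes of the proximal tubule, were at 0 in all controls and reached 6.0 and 2.01 estimated counts in mutant replicate 3. The part of kidney-type RNA in the Acsm2 values was not tested.

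Acsm4, known from olfactory epithelium, is not one of the 4. It had 0 estimated counts in all 6 libraries, which over their summed depth allows up to 0.0128 CPM.

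**Figure D1:**
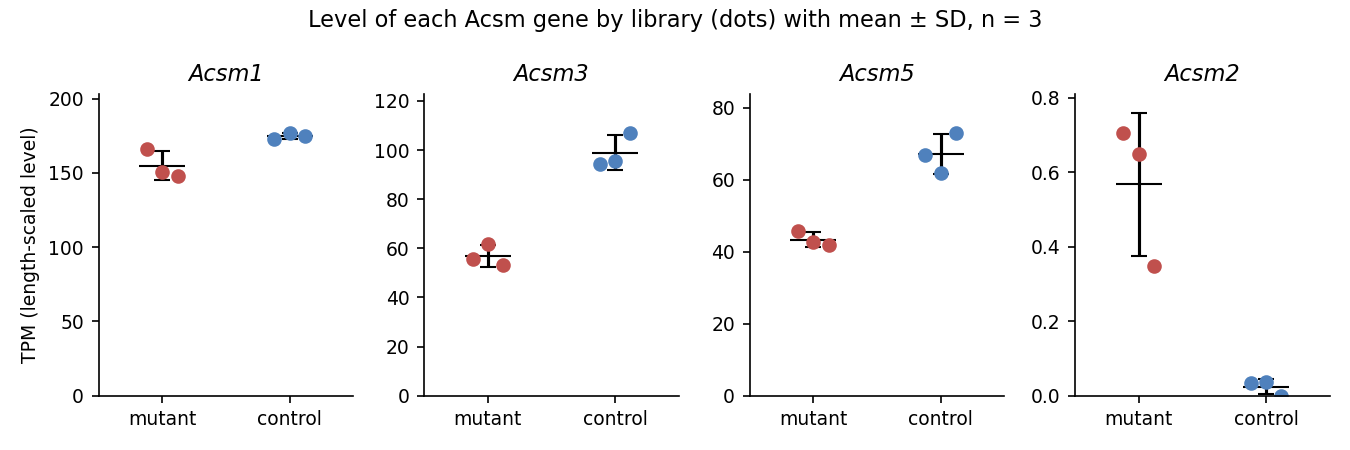
Level in TPM (vertical axes, each from 0) of Acsm1, Acsm3, Acsm5 and Acsm2 in the 3 mutant libraries (red) and the 3 control libraries (blue), with mean ± SD in black. Acsm3 and Acsm5 have all mutant libraries well below the controls, Acsm1 is 148 to 166 TPM in mutants and 173 to 177 TPM in controls, and Acsm2 is under 1 TPM in every library and near 0 in controls.

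Read against all genes, these separations have a high background. In TPM, 3 of the 4 had every mutant library below every control library, as had 64.5% of the tested genes. With TMM scaling the groups did not overlap for Acsm1 and Acsm2, as for 34.9% of tested genes. By edgeR's test Acsm1 and Acsm2 were called higher and none of the 4 lower, where 6.64% of tested genes were called higher, 6.82% lower and 13.5% in either direction. Because the 4 were selected on this comparison, nothing is read from that count. The call of Acsm1 was absent with counts per library total, in the fits on TPM, and without mutant replicate 1 or any single control library. With counts per library total Acsm3 and Acsm5 were called lower, as were 4508 of 14286 tested genes on that scale. Both were also called lower with log2(TPM + 1), as were 7362 of 11567 tested genes.

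**Figure D2:**
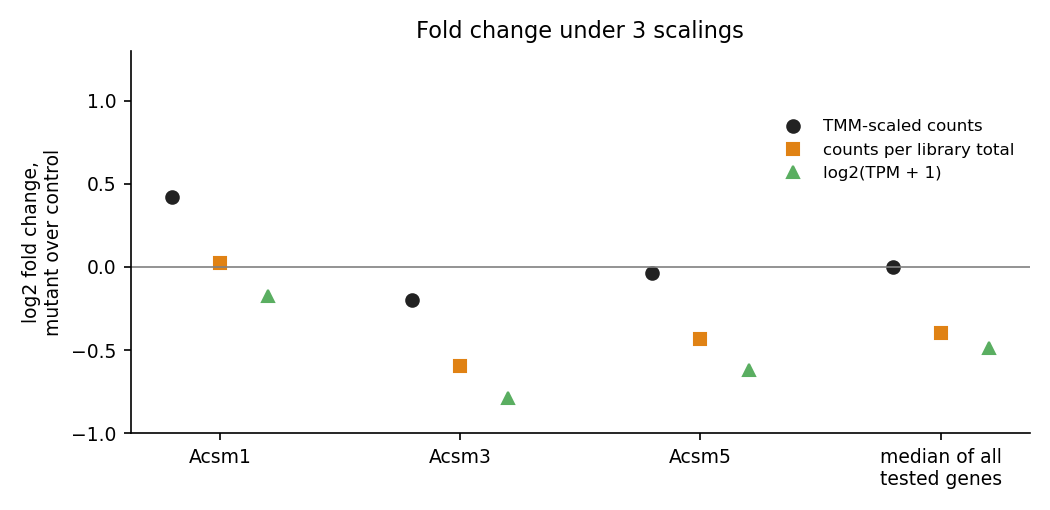
Log2 fold change, mutant over control (vertical axis), of Acsm1, Acsm3 and Acsm5 and the median of all tested genes, under TMM-scaled counts (circles), counts per library total (squares) and log2(TPM + 1) (triangles). The points of all 3 genes shift down together with the median, so the sign of Acsm1 changes while its place above Acsm5 and Acsm3 does not.

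Ratios between members within a library do not depend on library scaling, and they differed between the groups. The TPM of Acsm1 over that of Acsm3 was 2.99, 2.44 and 2.79 in the mutants, against 1.83, 1.85 and 1.63 in the controls. The means were 2.74 ± 0.277 in mutants and 1.77 ± 0.121 in controls (SD, n = 3 each), a factor of 1.55, and the groups did not overlap. Acsm1 over Acsm5 was 3.63, 3.55 and 3.55 in the mutants and 2.58, 2.86 and 2.4 in the controls, a factor of 1.37, again without overlap. Acsm3 over Acsm5 was 1.21, 1.45 and 1.27 in the mutants and 1.41, 1.55 and 1.47 in the controls, where the groups overlapped. Relative to Acsm3 and Acsm5, Acsm1 was thus higher in the mutants, which shows unequal change and not which of the genes changed. How often the ratios of other gene pairs separate the groups was not computed. Because the members were selected on this comparison, the ratios are a description only.

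**Figure D3:**
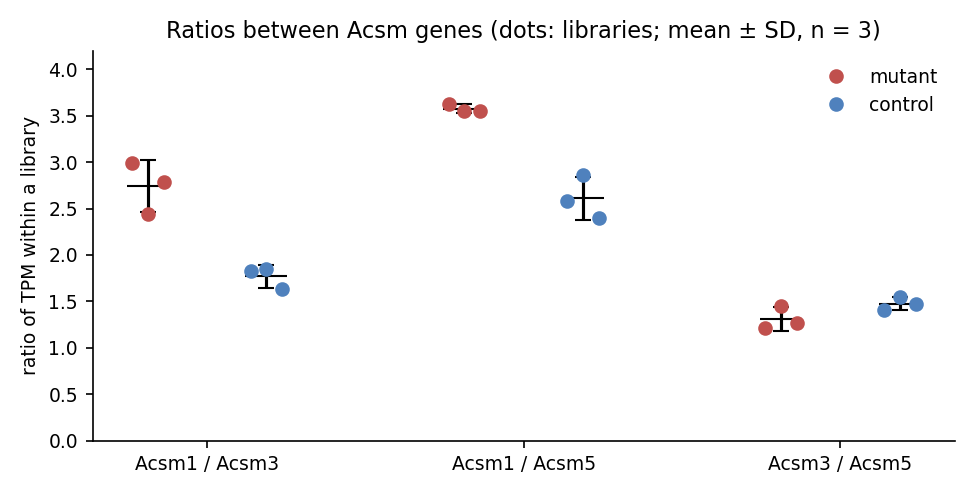
Ratio of the TPM of a pair of Acsm genes within each library (vertical axis from 0), for 3 mutant (red, left of each pair) and 3 control libraries (blue, right), with mean ± SD in black. Acsm1 over Acsm3 and Acsm1 over Acsm5 are higher in all mutant libraries than in all control libraries, while Acsm3 over Acsm5 overlaps.

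The order of levels per length was Acsm1, Acsm3, Acsm5, Acsm2 in each of the 6 libraries, and no neighbours in that order overlapped within a group. Summed, the 4 genes had 256 ± 12.2 TPM in the mutants and 341 ± 11.8 TPM in the controls (SD, n = 3 each). Acsm1 made up 60.6 ± 1.51% of that sum in the mutants and 51.3 ± 1.86% in the controls. Acsm3 made up 22.2 ± 1.75% in the mutants and 29.0 ± 1.03% in the controls, and Acsm5 17.0 ± 0.286% and 19.7 ± 1.09%. Acsm2 stayed below 0.3% of the sum in every library, with 0.220% on average in the mutants and 0.00710% in the controls. By mean TPM among all genes, Acsm1 ranked 625th in the mutants and 692nd in the controls, Acsm3 1358th and 1114th, and Acsm5 1687th and 1541st.

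Markers of the cells around the hepatocytes differed between the groups beside these values. Over all tested genes edgeR called 6.82% lower and 6.64% higher with TMM. In TPM 64.5% of tested genes had every mutant library below every control library, and the summed TPM of the hepatocyte markers was lower in the mutants as well. The summed level of 10 stellate cell markers was 68.2 to 75.8 TPM in the mutants and 210 to 228 TPM in the controls, and 7 of the 10 tested were called lower. Macrophage markers summed to 57.9 to 117 TPM in the mutants and 203 to 270 TPM in the controls, with 5 of 12 called lower. Endothelial markers summed to 31.2 to 43.8 TPM in the mutants and 55.3 to 109 TPM in the controls, with 2 of 8 called lower. Of 5 cholangiocyte markers tested Spp1 was called lower and Sox9 higher, with a median log2 fold change of 0.07. The 6 listed cholangiocyte markers summed to 22.3 to 35.0 TPM in the mutants and 76.6 to 113 TPM in the controls, mostly from Spp1, and the 5 without it to 3.52 to 5.25 TPM in the mutants and 4.17 to 5.73 TPM in the controls. Of the 10 hepatocyte markers 4 were called higher and none lower with TMM, against 2 higher and 3 lower with counts per library total. On that last scale 293 of 14286 tested genes were called higher and 4508 lower. In whole liver, fewer cells of a type and less RNA per cell cannot be told apart, and the part of cell composition in the Acsm values was not tested.

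The neighbours of the cluster were examined for a change shared by the region. Of the 7 protein-coding genes taken by position, 5 passed the filter on low counts and none was called by edgeR, with 1 at an unadjusted p under 0.05. That one was Pdilt, a testis-type protein disulfide isomerase, with 5.12 ± 0.716 CPM in the mutants and 3.45 ± 0.463 CPM in the controls (SD, n = 3 each) and a log2 fold change of 0.57 ± 0.22 (SE, adjusted p = 0.131). Thumpd1, which lies inside the cluster and encodes a partner of tRNA acetylation, had 19.2 ± 1.62 CPM in the mutants and 18.1 ± 1.73 CPM in the controls (log2 fold change 0.08 ± 0.13). Eri2, Rexo5 and Dcun1d3 had log2 fold changes of 0.20 ± 0.20, 0.45 ± 0.53 and 0.34 ± 0.28. Gp2 was at 0 counts in all libraries and Umod was too low to be tested. DESeq2 called none of the 5 either, and the fits on TPM called 1 of them, Thumpd1, lower with a log2 fold change of -0.46. With log2(TPM + 1) 7362 of 11567 tested genes were called lower. Along the chromosome the large value of Acsm2 stood between those of Acsm5, near 0, and Acsm1.

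**Figure D4:**
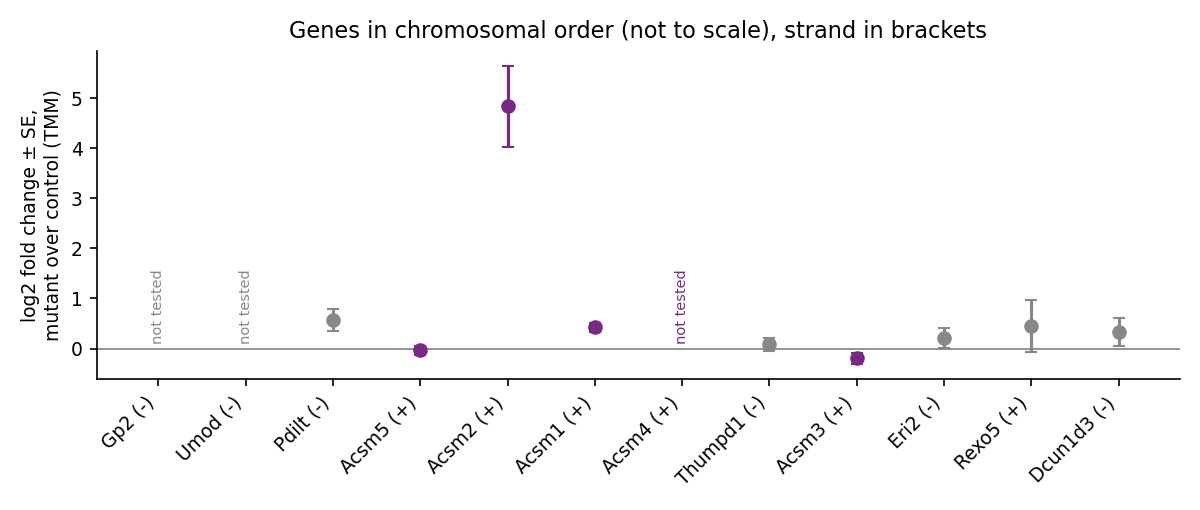
Log2 fold change, mutant over control, with TMM scaling (vertical axis, bars are SE) for the genes of the Acsm cluster (purple) and their neighbours (grey) in chromosomal order, with the strand in brackets and distances not to scale. Acsm2 is at 4.84 while every other tested gene shown lies between -0.20 and 0.57; Gp2, Umod and Acsm4 were too low to be tested.

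The other acyl-CoA synthetases of liver were compared from a list of 23 genes. Of 16 tested, 4 were called higher, 1 lower and 11 were not called, with a median log2 fold change of -0.02 against 0.00 over all tested genes. The share of all tested genes, for this and the following lists, was 6.64% called higher and 6.82% lower with TMM. With counts per library total 293 of 14286 tested genes were called higher and 4508 lower. With log2(TPM + 1) 217 of 11567 were called higher and 7362 lower. In this list the balance of calls turned round with counts per library total, to 0 higher and 6 lower. The median there was -0.42, against -0.40 over all tested genes. With log2(TPM + 1) 0 of the 14 tested were called higher and 8 lower. The 3 most abundant were higher in the mutants after TMM scaling. Slc27a2, the very long-chain synthetase and fatty acid transporter FATP2, had 2450 ± 224 CPM in the mutants and 1700 ± 125 CPM in the controls (log2 fold change 0.53 ± 0.11, edgeR adjusted p = 0.0166). Acsl1, the main long-chain synthetase, had 2380 ± 312 CPM in the mutants and 1660 ± 75.0 CPM in the controls (log2 fold change 0.52 ± 0.12, adjusted p = 0.0241). Slc27a5, the bile acid-CoA ligase, had 835 ± 98.4 CPM in the mutants and 624 ± 19.1 CPM in the controls (log2 fold change 0.42 ± 0.11, adjusted p = 0.0348). Their log2 fold changes with counts per library total were 0.13 for Slc27a2, 0.12 for Acsl1 and 0.021 for Slc27a5, and none of the 3 was called (adjusted p = 0.359, 0.424 and 0.881). The calls of Acsl1 and Slc27a5 were lost on leaving out any single library except mutant replicate 1, and that of Slc27a2 without mutant replicate 1 or control replicate 3. Like the fold change of Acsm1, those of Slc27a2, Acsl1 and Slc27a5 turned negative in TPM, at -0.07, -0.09 and -0.18. Acsf2, a mitochondrial medium-chain synthetase of another branch, was named outside the rule as the remaining gene called higher. It had a log2 fold change of 0.34 ± 0.09 (edgeR adjusted p = 0.0372), and its call was lost without any single library except mutant replicate 2. By limma on log2(TPM + 1) Acsf2 was called lower, at -0.26 (adjusted p = 0.0373), opposite to its call with TMM.

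Acss3, a mitochondrial synthetase of short acids such as propionate, was the one called lower. It had 35.8 ± 6.15 CPM in the mutants and 72.0 ± 6.84 CPM in the controls (SD, n = 3 each), a log2 fold change of -1.01 ± 0.14 (edgeR adjusted p = 0.00395). It was called lower under every alternative run. Per length the leading synthetases were more abundant than any Acsm gene, with 1250 TPM in the mutants and 1320 TPM in the controls for Slc27a2, 648 and 687 TPM for Acsl1, and 411 and 464 TPM for Slc27a5.

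Genes around the use of medium-chain acyl-CoA, including electron carriers that serve its dehydrogenases, were followed in a list of 17, all tested. Not every gene of this list acts on medium-chain acyl-CoA itself. Of these 6 were called higher, 1 lower and 10 were not called, with a median log2 fold change of 0.26 with TMM. With counts per library total 1 was called higher and 5 lower, with a median of -0.14, and with log2(TPM + 1) none was called higher and 14 were called lower. Of all tested genes 4508 of 14286 and 7362 of 11567 were called lower on these scales. Etfb, a subunit of the electron transfer flavoprotein that takes electrons from acyl-CoA dehydrogenases, had 320 ± 16.6 CPM in the mutants and 187 ± 10.1 CPM in the controls (log2 fold change 0.77 ± 0.09, edgeR adjusted p = 0.00167). Its partner Etfa had 376 ± 12.2 CPM in the mutants and 291 ± 11.9 CPM in the controls (0.37 ± 0.08, adjusted p = 0.0247). The carnitine palmitoyltransferase Cpt2 (0.50 ± 0.09, adjusted p = 0.00926) and the thiolase Acaa2 (0.55 ± 0.10, adjusted p = 0.0113) were also higher. Etfb was still called with counts per library total, at 0.38, whereas Etfa, Cpt2 and Acaa2 were not. The call of Etfa was lost without mutant replicate 1 or 2 or control replicate 1 or 2. By limma on log2(TPM + 1) Etfa was called lower, at -0.23 (adjusted p = 0.0288), so the direction of its call depended on the scaling. Acadm, the medium-chain acyl-CoA dehydrogenase, had 666 ± 0.942 CPM in the mutants and 557 ± 4.79 CPM in the controls and was not called (log2 fold change 0.26 ± 0.08, adjusted p = 0.0655). Acot2, a mitochondrial thioesterase that releases fatty acid from its coenzyme A ester, was the one called lower (-0.88 ± 0.21, adjusted p = 0.0321), a call lost without any single library except control replicate 3. Acadm and Acot2 were named after their values were seen.

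Genes around conjugation with glycine and taurine were followed in a list of 10, of which 8 were tested, 2 were called higher and none lower. Not every gene of this list carries out conjugation itself. With counts per library total 1 was called higher and 1 lower, and with log2(TPM + 1) 1 higher and 2 lower. Gnmt, which methylates glycine, had 1340 ± 175 CPM in the mutants and 619 ± 41.5 CPM in the controls (log2 fold change 1.11 ± 0.12, edgeR adjusted p = 0.00103), and it was called higher under every alternative run. Gm4952, a predicted gene, had 236 ± 24.4 CPM in the mutants and 183 ± 9.89 CPM in the controls (0.37 ± 0.10, adjusted p = 0.0486), a call lost without any single library. Glyat, the glycine N-acyltransferase that acts after the Acsm enzymes, had 227 ± 51.1 CPM in the mutants and 178 ± 14.7 CPM in the controls and was not called (0.35 ± 0.16, adjusted p = 0.179). It was named after its values were seen. Of 16 genes of coenzyme A supply, from pantothenate uptake to coenzyme A hydrolysis, edgeR called none, with 2 at an unadjusted p under 0.05, and the median log2 fold change was 0.08. DESeq2 called none of the 16 either. Of the 16, 6 were called lower with counts per library total and 11 with log2(TPM + 1). Of all tested genes 4508 of 14286 and 7362 of 11567 were called lower on these scales.

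**Figure D5:**
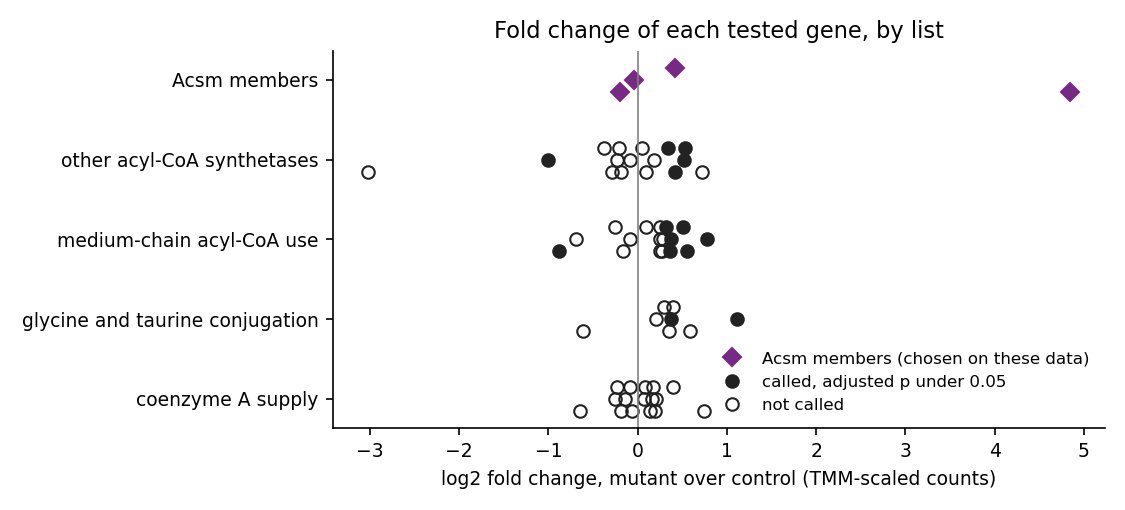
Log2 fold change with TMM scaling (horizontal axis) of each tested gene of the Acsm group (diamonds) and of 4 lists of related genes (circles, filled where called at an adjusted p under 0.05). Acsm2 at 4.84 lies far to the right of every listed gene, while Acsm1 at 0.42 lies among the called synthetases and oxidation genes.

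The genes most like each member over the 6 libraries were found by the root-mean-square difference of log2 CPM, each gene centred on its own mean. For Acsm1 they were Ubl7 (0.0163), Hspd1, the mitochondrial chaperonin (0.0224), and the ribosomal protein gene Rpl7a (0.0268), and 464 genes were within 0.1. For Acsm3 they were Cmtm6 (0.0363), Rbbp9 (0.0375) and Galm, the galactose mutarotase (0.0436), with 185 genes within 0.1. For Acsm5 they were Nckap1 (0.0246), Clybl (0.0275) and Nab1 (0.0304), with 568 within 0.1. Acsm2 had no gene within 0.1, and the nearest were the major urinary protein genes Mup9 (0.536) and Mup13 (0.543) and the calpain gene Capn8 (0.553). At its low counts the log2 CPM of Acsm2 had an SD of 0.633 within groups, above that cut of 0.1, against 0.0543 for Acsm1. These distances also contain the difference between the groups on which the members were selected. Mup9 had 3350 CPM in the mutants and 205 CPM in the controls. Among the members, Acsm3 and Acsm5 were the most alike (0.121), Acsm1 and Acsm5 differed by 0.240 and Acsm1 and Acsm3 by 0.329, and Acsm2 stood apart from the others by 1.82 to 2.13.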

How the data were processed

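Liver RNA of 3 mutant and 3 control libraries was measured by poly(A)-enriched paired-end sequencing, per the labels' protocols. Cutadapt, STAR and the build mm10 are named in the submitters' processing notes; no source used here names the program that gave the values. Deposited by the authors were a table of estimated counts and a table of TPM, with 1 column per library. None of the nonzero estimated counts was whole within 1e-06, and their ratio to the TPM followed a gene factor and a library factor within 5.7e-10 over 10983 genes. They are thus rescaled abundances, and counting intervals are approximate.

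After rounding, the estimated counts entered edgeR 4.0.16 under R 4.3.3 (filterByExpr, TMM, quasi-likelihood F-test on group, Benjamini-Hochberg over 14286 genes, call at an adjusted p under 0.05). Errors of log2 fold changes are SE from the F statistic. Alternatives were RLE, library totals, other filters, DESeq2 1.42.0, a block on the replicate number, the omission of each library, and limma 3.58.1 on log2(TPM + 1) or log2(TPM + 0.1). The steps were also run on simulated counts with known changes. That simulation built in no shift of the typical gene between groups, so it does not bear on the choice of scaling. Columns were matched by title, with 0 left over. Correlations of log2 CPM (prior count 2) were 0.962 to 0.975 within groups and 0.937 to 0.952 between them.

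The members and lists were chosen with earlier results of these data known. Named genes were the members, Acsm4, up to 4 called genes per enzyme list by p, the 3 most abundant other synthetases, the neighbours by position, and the 3 most alike genes with a mean of at least 1 CPM in a group and no predicted symbol.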

Additional observations from a re-analysis of the deposited data

How the results depend on the processing

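Directions and calls depended mainly on the scaling. With library totals 293 of 14286 genes were called higher and 4508 lower. With limma on log2(TPM + 1) 217 of 11567 were called higher and 7362 lower, and on log2(TPM + 0.1) 211 and 7315. With no TPM filter 190 of 22796 were called higher and 6391 lower. DESeq2 called 1474 lower. Without 1 replicate, 426 to 758 were called higher and 430 to 756 lower, the lowest counts being those without mutant replicate 1 and control replicate 1. The log2 fold change of Acsm1 was 0.025 with library totals and -0.17, -0.18 and -0.17 in those TPM fits, that of Acsm3 -0.60, then -0.79, -0.80 and -0.79, and that of Acsm5 -0.43, then -0.62, -0.63 and -0.62. For Acsm2 it was 0.61 with no TPM filter, where the pseudocount of 1 exceeds its TPM. Without 1 replicate the ranges were 0.40 to 0.46 for Acsm1, 4.30 to 5.23 for Acsm2, -0.31 to -0.14 for Acsm3 and -0.087 to 0.021 for Acsm5.

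With library totals the values of Gm4952, Etfa and Acsf2 were -0.030, -0.027 and -0.058. In the TPM fits those of Gm4952 were -0.23, of Etfa -0.23, of Acsf2 -0.26, of Acaa2 -0.049, of Cpt2 -0.094 and, with the smaller pseudocount, -0.095, of Acsl1 -0.088, of Slc27a2 -0.072 and of Slc27a5 -0.18. The number called among other acyl-CoA synthetases was 8 with DESeq2 and 8 in both filtered TPM fits, where all 8 were lower with log2(TPM + 1), and 1 to 4 without a replicate. In the list around medium-chain acyl-CoA use it was 14 in the filtered TPM fits, 13 with no TPM filter and 3 to 5 without a replicate. All 14 were lower with log2(TPM + 1), against 6 higher and 1 lower with TMM. In the list around conjugation it was 4 with DESeq2, 1 with the CPM filter, and 1 to 2 without a replicate. In coenzyme A supply it was 6 with library totals, 2 with no count filter, 11 in the filtered TPM fits and 8 with no TPM filter, and 0 to 1 without a replicate. For the neighbours it was 1 in each TPM fit.

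Replicate numbers gave no clear pairing: deviations of same-numbered libraries correlated at 0.0167, -0.0032 and 0.0634, and not every library correlated best with its own number. The labels do not say whether same-numbered libraries share a litter or batch, and 3 libraries per group are too few to settle it. With the replicate block 775 genes were called higher and 783 lower. Called among the lists were 3 other synthetases, 4 genes of the list around medium-chain acyl-CoA use and, of the list around conjugation, Gnmt alone. RLE factors changed no call among the members and the 12 listed genes followed here. At about 0.04 CPM the control level of Acsm2 rests on 6 rounded counts, so depth limits its fold change.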
